A study of Saturnispora dispora and Saturnispora hagleri and Saturnispora mendoncae with 16 samples.

Results

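The largest gene families that 4 *Saturnispora* yeasts share are described here across species. They are the orthogroups numbered OG0000000 to OG0000249 that have a value in every species, apart from OG0000019, OG0000052 and OG0000143, which were set aside. OrthoFinder numbers orthogroups by falling gene number, so low numbers mark the families with most genes. Of the 250 orthogroups in this range, 215 were shared by all species and 212 remained after the 3 were set aside. They were compared with the other 4093 of the 4305 orthogroups shared by all species, in a table of 5029. The 3 set aside stand among these 4093.

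The study asks how rapid glycolysis evolved in this genus of budding yeasts, and groups its species by the extracellular acidification rate (ECAR), a proxy for the glycolytic rate. The rapid ECAR species are *Sat. dispora*, written Sdis, and *Sat. hagleri*, written Shag, and the low ECAR species are *Sat. mendoncae*, written Smen, and *Sat. silvae*, written Ssil. Poly(A) RNA was sequenced from 4 replicate cultures of each species, 16 libraries in all, grown at room temperature in shaken baffled flasks (250 ml flasks holding 50 ml, 225 rpm) on 2% glucose in synthetic complete medium, from a starting OD600 of 0.05. According to the methods, Sdis and Shag were harvested at 15 h and Smen and Ssil at 18 h, all in log phase, so the ECAR class, the hour of harvest and any descent shared by the species of a class cannot be told apart. No genotype was altered, and each species has its own gene models, so a difference between species holds the genome, its annotation and the RNA level together.

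An orthogroup holds the genes of several species that descend from 1 ancestral gene. It grows when a gene is duplicated, and the copies, called paralogs, may keep the same task, share it out or be expressed at different levels. In budding yeasts, sugar transporters, transporters of other nutrients and cell wall proteins are well known for having such copies. The value used here is the TPM of an orthogroup, a read count corrected for gene length and library size, for which the authors added up the reads and the lengths of all member genes, took the ratio and scaled it to the same sum in every library. It is therefore a length-weighted average over the copies, and a species with more copies at the same level each has the same TPM. In bulk RNA, fewer cells with a transcript and less of it per cell cannot be told apart.

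The files do not pair orthogroups with gene names. Each gene was instead placed in an orthogroup by arithmetic, since the summed counts of the right genes follow the TPM exactly over the 4 libraries of a species. The 35 genes that the study's supplementary tables name fell into 10 orthogroups, and none of these is among the 212 families, so they are given by number and without a role. Of these 35 genes, 11 lie in the 3 orthogroups set aside.

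Libraries held between 6196684 and 13928456 counts in genes, and between 4.10% and 19.0% of counted read pairs lay outside genes or could not be given to one. Shag replicates 3 and 4 lay farthest from their species mean, with a median absolute deviation of 0.34 and 0.29 on log2(TPM + 1) over the orthogroups tested, against 0.05 to 0.14 in the other 14 libraries. The counts without each library are in the closing section.

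The families were tied to 308 genes in Sdis, 360 in Shag, 359 in Smen and 359 in Ssil. Of the families tied in a species, 38.5% held more than 1 gene in Sdis, 53.6% in Shag, 53.1% in Smen and 56.3% in Ssil. Among the other shared orthogroups tied, these shares were 0.149%, 0.0985%, 0.345% and 0.419%. Gene number is what the numbering used, so this contrast is a description. A family most often held 1 gene in Sdis, in 126 of 205 families, and 2 genes in Ssil, in 92 of 206. Over the 197 families tied in all species there were 1324 genes, from 4 to 24 per family with a median of 6, and 61 families held the same number in every species while 136 did not.

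**Figure D1:**
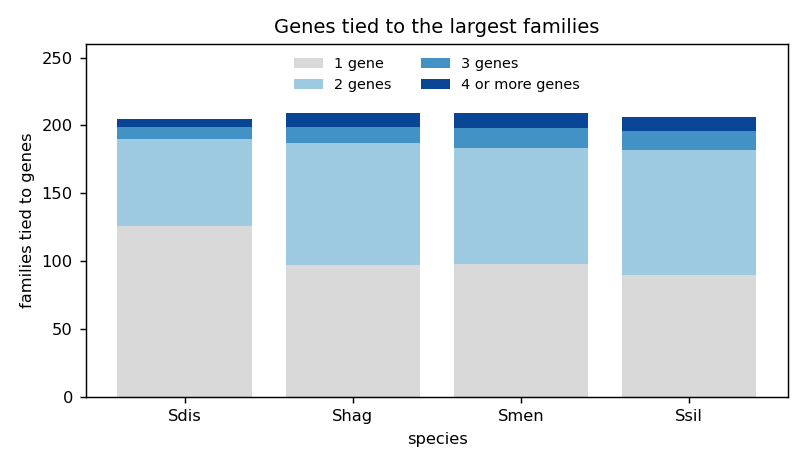
Stacked bars give the number of families tied to 1, 2, 3 or 4 and more genes in each species (vertical axis, families). Families with 1 gene number 126 in Sdis, 97 in Shag, 98 in Smen and 90 in Ssil.

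The limit of the range falls among families with few tied genes. OG0000248 and OG0000249, just inside it, and OG0000251 and OG0000250, just outside, each held 1 gene per species, except for 2 genes of OG0000250 in Smen and 2 of OG0000251 in Ssil. In all, 31 of the 197 families were tied to only 4 genes. The numbering was made over *Saturnispora* species, and genes without a read cannot be tied, so the number tied is a lower bound on the family's size. In 8 of these 31 families (25.8%) the longest summed coding length was over 1.5 times the shortest, against 4.91% of 3972 other orthogroups with 1 gene tied in each species. OG0000248 is one of them, with 239 codons in Sdis and 1139 in Smen. Its species mean TPM was 5.67 in Sdis, 14.7 in Shag, 7.92 in Smen and 57.0 in Ssil, and that of OG0000249 was 21.2, 24.98, 46.1 and 39.5. Outside the limit, OG0000250 had 237, 324, 94.1 and 221 TPM and OG0000251 had 392, 521, 3689 and 317, in the same order of species. Genes of the families were also longer, with a median of 482 to 511 codons per gene across species against 414.5 to 422 in the other shared orthogroups.

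OG0000000 was the largest family, with 7 genes in Sdis, 8 in Shag, 4 in Smen and 5 in Ssil. Its TPM was 35.0, 33.6, 35.7 and 35.2 in the 4 Sdis libraries and 28.4, 30.8, 28.2 and 31.0 in Smen. It was 145, 143, 141 and 132 in Ssil, and 59.5, 89.2, 46.4 and 108 in Shag. In TPM, every Ssil library lay above every library of the other species, and Shag replicates 1 and 3 lay below replicates 2 and 4. Between Ssil and Smen the log2 difference was 2.21 (SE 0.18, limma adjusted p = 5.51e-09). The leading gene, the one with the largest mean share of the family's counts, took 66.99% ± 1.22 (SD, n = 4) in Sdis, 67.05% ± 6.11 in Shag, 61.8% ± 3.63 in Smen and 72.1% in Ssil. In each species it was the same gene in all 4 replicates.

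OG0000006 and OG0000005 came next by gene number, with 17 and 16 tied genes. OG0000006 held 4 genes in each of Sdis, Shag and Smen and 5 in Ssil, with 116 ± 3.20, 73.9 ± 5.89, 115 ± 4.37 and 100.6 ± 5.50 TPM (mean ± SD, n = 4). In TPM, all Shag libraries, from 67.9 to 81.3, lay below all others, and the difference from Sdis was -0.65 (SE 0.07, limma adjusted p = 1.74e-06). OG0000005 held 4 genes in every species and fell in the order Sdis, Shag, Smen and Ssil, at 1865 ± 195, 1507 ± 120, 1120 ± 79.1 and 725 ± 48.6 TPM. The lowest Sdis library, at 1654, lay below the highest of Shag, at 1663, while those of Shag, Smen and Ssil did not overlap. Its leading gene took 51.1% ± 0.711 in Sdis and 68.2% ± 0.724 in Ssil. In Shag it took 38.2% ± 12.6, and there the leading gene was not the same in all replicates.

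Paralogs of a family mostly had unequal shares of its reads. In families of 2 tied genes, the leading gene took a median of 71.7% of the counts in Sdis, 77.0% in Shag, 79.3% in Smen and 76.3% in Ssil. It took over 90% in 15 of 63, 24 of 90, 25 of 84 and 21 of 91 such families, and under 60% in 17, 20, 11 and 22. The same gene led in all 4 replicates in 53, 80, 83 and 80 of them. The median SD of this share over replicates was between 1.19 and 2.40 percentage points, with the largest value in Shag. Read pairs that fit several genes were shared out in fractions, and 64.4% to 74.1% of the genes in families of 2 or more had such a pair, against 66.5% to 71.3% of the genes in other shared orthogroups with 1 gene. Copies that are nearly identical get equal parts by this rule, so their split is uncertain. The 2 genes of OG0000170 in Smen had such equal parts, at 50.0% ± 0.0243 and 50.0%, and how alike they are was not tested.

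The level of a typical family was close to that of other shared orthogroups in 3 species and lower in Ssil. The median of the species mean TPM over the 212 families was 34.1 in Sdis, 46.0 in Shag, 46.0 in Smen and 61.0 in Ssil. Over the other 4093 it was 33.8, 46.5, 43.3 and 78.3. The medians of single Ssil libraries ran from 61.1 to 62.5 for the families and from 76.8 to 80.2 for the others, without overlap, while in Sdis and Shag the ranges overlapped. This depended on the limit of the range. Over the 81 families up to OG0000099 the median was 56.3 in Sdis, 1.65 times the value above, 64.1 in Shag, 57.7 in Smen and 69.3 in Ssil, beside 33.7, 46.1, 43.1 and 77.8 in all other shared orthogroups. In Smen the library medians of all 212 families ran from 44.5 to 46.4 and those of the other 4093 from 41.5 to 45.1, and these ranges overlapped. The families held more very high values. From 11 (Ssil) to 17 (Sdis) families had 1000 TPM or more, which is 5.19% to 8.02% of the families against 2.83% to 4.25% of the others. Together the families carried 5.99% ± 0.107 of all TPM in Sdis, 5.64% ± 0.0575 in Shag, 6.26% ± 0.137 in Smen and 6.21% ± 0.0642 in Ssil.

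**Figure D2:**
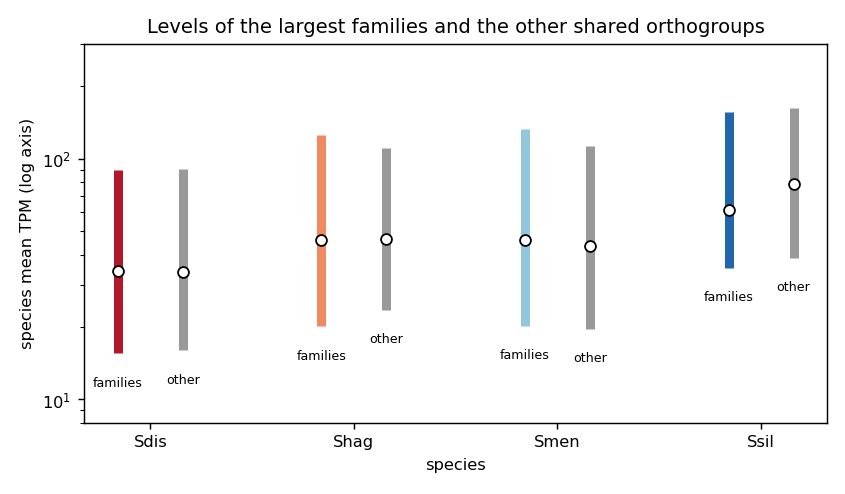
Species mean TPM on a log axis for the 212 families (coloured bars) and the other 4093 shared orthogroups (grey bars), with the median (white circle) and the range from the 25th to the 75th percentile (bar). The medians lie at 61.0 against 78.3 TPM in Ssil and within 3 TPM of each other in the other species.

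The 5 families of the highest mean made up 41.2% ± 1.03 of the families' TPM in Sdis, 42.0% ± 4.37 in Shag, 48.8% ± 0.869 in Smen and 34.8% ± 0.453 in Ssil. OG0000047 stood first. Its TPM was 11137, 11466, 12620 and 11748 in Sdis, 12550, 11086, 12835 and 10266 in Shag, 13695, 13263, 13689 and 14624 in Smen and 5275, 5662, 6286 and 5964 in Ssil. All Ssil libraries lay far below the others, with a difference from Smen of -1.26 (SE 0.09, limma adjusted p = 2.10e-09), and Sdis and Shag overlapped. It held 3 genes in Sdis and in Shag, 2 in Smen and 1 in Ssil. Its leading gene took 52.5% ± 0.368 of its counts in Sdis, 77.1% ± 0.920 in Shag and 94.9% ± 0.182 in Smen.

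OG0000042 rose in the order Sdis, Shag, Smen and Ssil, with 2 genes in each species and 152 to 179 codons in sum. Its TPM was 2592 ± 164, 3787 ± 285.3, 6837 ± 339 and 14096 ± 719, and no 2 species overlapped. Between Ssil and Sdis the difference was 2.44 (SE 0.08, limma adjusted p = 1.14e-13), and each of the other 5 comparisons was called as well. The leading gene took between 50.9% and 66.0% of its counts.

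OG0000127 was highest in Smen, at 7440 ± 536 TPM, and lower in Shag, Sdis and Ssil, at 3424 ± 218, 2628 ± 140 and 1457 ± 74.0. No libraries of different species overlapped, and the difference between Ssil and Smen was -2.35 (SE 0.08, limma adjusted p = 1.12e-13). Its summed coding length differed widely, with 51 codons in Sdis for 1 gene and 106, 192 and 435 in Shag, Smen and Ssil for 2 genes each. Without gene length, as counts scaled by library size, Ssil lay 1.90 above Sdis on the log2 scale, whereas in TPM it lay 0.85 below.

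In TPM, OG0000236 and OG0000170, of 68 and 63 codons in Sdis, both fell in the order Sdis, Shag, Smen and Ssil. OG0000236, with 1 gene of 68 codons in every species, was 4698, 4140, 3571 and 4572 TPM in Sdis, 2876, 2267, 3133 and 1730 in Shag, 1275, 1542, 1445 and 1342 in Smen and 139, 137, 169 and 166 in Ssil. The species did not overlap, and the Ssil mean lay 27.8-fold below that of Sdis (log2 difference -4.78, SE 0.15, limma adjusted p = 6.03e-14). OG0000170 was 3488 ± 435, 2315 ± 614, 1072 ± 119 and 152 ± 43.6 TPM, with a difference between Ssil and Sdis of -4.55 (SE 0.20, limma adjusted p = 1.33e-12). In TPM, its libraries did not overlap between species. OG0000170 held 2 genes of 143 codons in sum in Smen, against 1 gene of 63 codons in Shag. Without gene length, Smen lay 0.12 above Shag on the log2 scale, whereas in TPM it lay 1.07 below.

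Differences between species were tested over 4232 shared orthogroups that averaged 5 TPM or more over the libraries and were not at 0 in any species, and 209 of the 212 families passed this filter. The call was an adjusted p under 0.05 in limma on log2(TPM + 1). Since most orthogroups were called in every comparison, each count is set beside the share of all 4232 that was called. Between Shag and Sdis, 159 families were called (76.1%, all orthogroups 74.1%), of which 105 were higher in Shag (50.2%, all 57.2%) and 54 lower (25.8%, all 16.8%). Between Smen and Sdis, 172 were called (82.3%, all 77.6%), 112 higher in Smen (all 51.2%) and 60 lower (28.7%, all 26.4%). Between Ssil and Sdis, 194 were called (92.8%, all 89.8%), 135 higher in Ssil (64.6%, all 69.9%) and 59 lower (28.2%, all 19.9%).

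Between Smen and Shag, 161 families were called (77.0%, all 69.6%), 84 higher in Smen (40.2%, all 32.3%) and 77 lower (36.8%, all 37.3%). Between Ssil and Shag, 180 were called (86.1%, all 83.1%), 121 higher in Ssil (57.9%, all 60.5%) and 59 lower (28.2%, all 22.6%). Between Ssil and Smen, the counts were also 180, 121 and 59, beside 84.1%, 62.1% and 22.1% of all orthogroups. In TPM, the share called was above that of all orthogroups in each comparison, with the widest gap between Smen and Shag.

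The split into higher and lower depended on the scaling. TPM has the same sum in each library, and the median of all orthogroups was 1.06 higher in Ssil than in Sdis on the log2 scale and 0.42 higher in Shag than in Sdis. With libraries rescaled so that the median ratio of orthogroups to their mean was equal, which is called median-ratio rescaling here, these medians were 0.02 and -0.00. Between Shag and Sdis 55 families were then higher (26.3%, all 34.5%) and 90 lower (43.1%, all 34.9%). Between Smen and Sdis there were 86 higher (41.1%, all 38.4%) and 87 lower (41.6%, all 40.5%), and between Ssil and Sdis 82 higher (39.2%, all 43.1%) and 95 lower (45.5%, all 42.6%). The numbers were 92 higher (44.0%, all 41.1%) and 89 lower (42.6%, all 41.3%) between Ssil and Shag, and 81 higher (38.8%, all 41.8%) and 98 lower (46.9%, all 41.4%) between Ssil and Smen. Only between Smen and Shag did the split stay close, at 93 higher (44.5%, all 36.5%) and 75 lower (35.9%, all 36.9%). The share of calls that were higher is therefore a value relative to TPM and not to the typical orthogroup. Nor was the share called above that of all orthogroups under each scaling. After rescaling, 39.2% higher and 45.5% lower between Ssil and Sdis stood beside 85.7% of all called either way. The order and overlap of libraries in single families are given in TPM as well and need not hold after rescaling. The range of species means went from 2.21 to 1.51 in OG0000000 and from 0.65 to 1.27 in OG0000006.

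The sizes of the differences were larger among the families in most comparisons. The share of families over 2-fold apart was 25.8% between Shag and Sdis, beside 20.3% of the other shared orthogroups tested, and 46.4% beside 34.5% between Smen and Sdis. It was 65.6% beside 61.8% between Ssil and Sdis and 40.7% beside 28.4% between Smen and Shag. It was 56.0% in both remaining comparisons, beside 46.8% between Ssil and Shag and 50.6% between Ssil and Smen. The median absolute log2 difference told the same except between Shag and Sdis, where it was 0.54 in the families and 0.59 in the others, and between Ssil and Sdis, where both were near 1.3. It did not hold at every limit of the range. Up to OG0000099 the median between Smen and Sdis was 0.73, beside 0.74 in the others, and between Smen and Shag 0.64 beside 0.60, whereas for all families tested these were 0.94 beside 0.74 and 0.80 beside 0.59. After median-ratio rescaling it was 0.53 in the families and 0.43 in the others between Shag and Sdis.

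**Figure D3:**
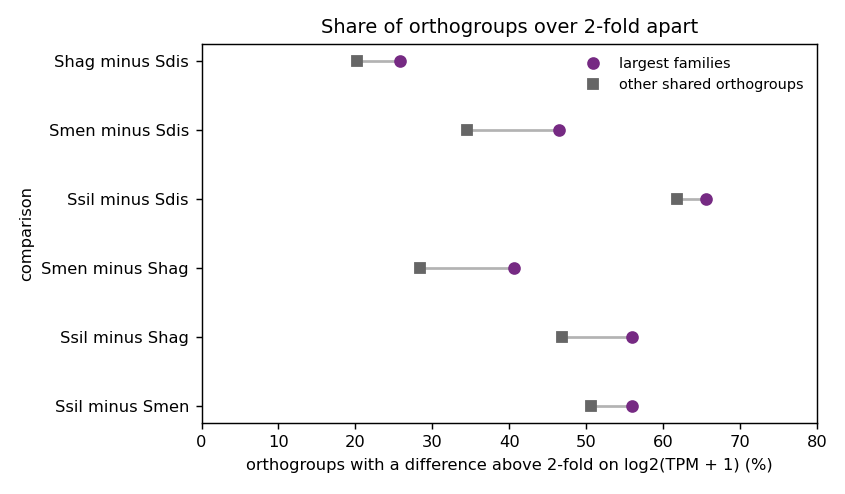
Share of orthogroups with a difference above 2-fold on log2(TPM + 1), in percent, for the 209 families tested (circles) and the other 4023 shared orthogroups tested (squares) in the 6 comparisons of species. The circle lies right of the square in each, from 65.6% against 61.8% between Ssil and Sdis to 40.7% against 28.4% between Smen and Shag.

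The range of the 4 species means on log2(TPM + 1) had a median of 1.91 over the families and 1.70 over the other orthogroups tested. It was over 3 in 48 families (23.0%), beside 14.5% of the others, and under 1 in 21 (10.05%), beside 19.1%. All 6 comparisons were called in 69 families (33.0%), beside 23.6% of the others. None was called in 2 families (0.957%), beside 0.696% of the others. Within the families, taken in order of number in 5 bands of 50 numbers, the median range was 1.84, 2.21, 2.41, 1.83 and 1.70. For higher numbers it stayed between 1.68 and 1.71 in each band. Families with the same number of genes in all species had a median range of 1.75 (61 families), and those with differing numbers 1.88 (135 families tested). The replicate SD on the same scale was lower than these ranges, with a median of 0.12 over the families and the 4 species. By species this median was 0.13 in Sdis, 0.29 in Shag, 0.092 in Smen and 0.088 in Ssil.

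In all, 7 families (3.30%) had a mean under 1 TPM in one species and at least 50 TPM in another, beside 0.440% of the other shared orthogroups. The low species was Sdis in 5 of them, Shag in 1 and Ssil in 1. OG0000132 had the widest range of all families tested, 11.27. Its TPM was 0.0594, 0.182, 0.0739 and 0.0746 in Sdis, 179, 275, 124 and 339 in Shag, 802, 826, 820 and 853 in Smen and 2781, 2746, 2676 and 2627 in Ssil. The 4 species did not overlap, and it gave the largest rise over Sdis in Shag (7.61, SE 0.21, limma adjusted p = 6.47e-14), in Smen (9.56, adjusted p = 8.57e-16) and in Ssil (11.27, adjusted p = 9.86e-17). The Sdis values rest on too few reads to tie a gene, so these differences depend on the pseudocount of 1 TPM and no ratio is given. It was tied to 2 genes in Shag, where the leading gene took 95.3% ± 1.87 of the counts, and to 1 gene in Smen and in Ssil.

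OG0000097 was lowest in the low ECAR species. Its TPM was 1208, 1165, 1201 and 1213 in Sdis, 412, 511, 280.9 and 508 in Shag, 64.2, 48.9, 53.7 and 60.5 in Smen and 1.10, 0.350, 0.677 and 0.643 in Ssil. No species overlapped. It gave the largest fall from Sdis in Smen (-4.38, SE 0.17, limma adjusted p = 8.26e-13) and in Ssil (-9.48, adjusted p = 7.72e-17), and the largest fall from Shag in Ssil (-7.96, adjusted p = 7.14e-16). It held 1 gene of 188 codons in Sdis and 183 in Smen and 2 genes in Shag, 1 of which took 98.5% ± 0.701 of the counts. No gene was tied in Ssil, where the mean was 0.692 TPM. The differences from Ssil therefore depend on the pseudocount of 1 TPM.

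**Figure D4:**
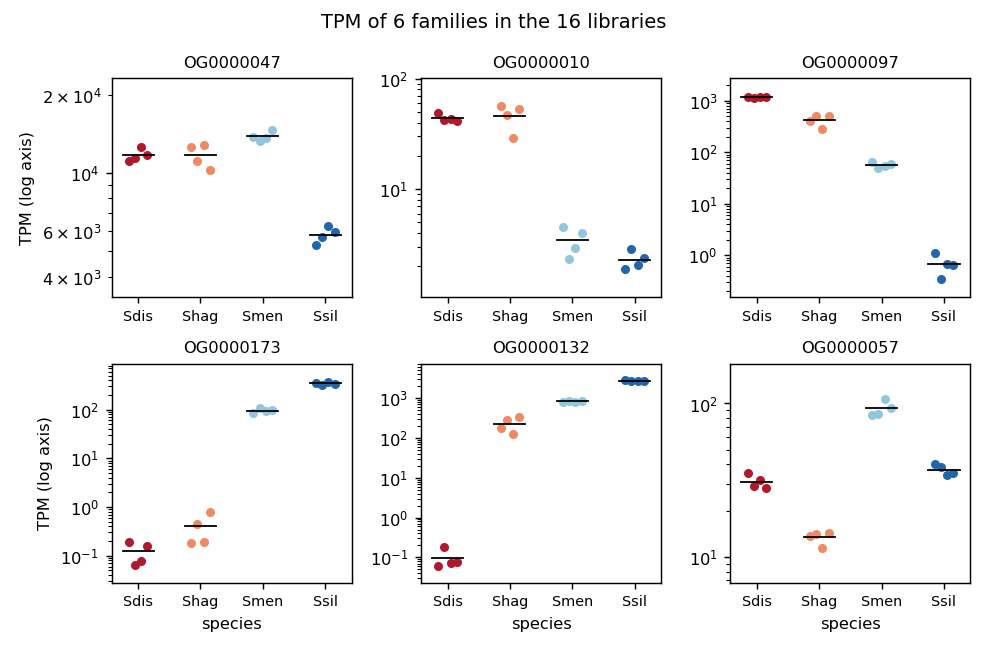
TPM of 6 families in each library on log axes that differ between panels (points, 4 replicates per species, line at the mean). OG0000132 and OG0000173 are under 1 TPM in every Sdis library, OG0000097 is at most 1.10 TPM in Ssil, and in OG0000057 the 4 Shag libraries, with 5 genes, lie below all others.

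The other comparisons each had their own extremes. OG0000117 was nearly absent from Shag, at 0.528, 0.652, 0.124 and 0.794 TPM, and was 31.6 ± 13.5 in Sdis, 114 ± 18.3 in Smen and 58.7 ± 11.3 in Ssil. Shag did not overlap the other species. The difference was -4.36 against Sdis (SE 0.23, limma adjusted p = 3.98e-10) and 6.25 between Smen and Shag (adjusted p = 6.47e-13). With a Shag mean of 0.524 TPM, these differences depend on the pseudocount of 1 TPM. OG0000145 was lowest in Smen, at 9.35, 5.86, 5.75 and 4.07 TPM against 102 ± 17.9 in Shag (-3.85, SE 0.17, adjusted p = 5.54e-12). It held 2 genes in Sdis and in Shag and 1 in Smen and in Ssil.

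OG0000018 was 703, 702, 705 and 698 TPM in Ssil and 15.02, 15.2, 14.9 and 14.1 in Smen, the largest rise between these species (5.47, SE 0.17, limma adjusted p = 4.41e-14), with 3 and 4 genes. Sdis and Shag lay between, at 62.2 ± 10.8 and 184 ± 55.7. OG0000196 went the other way, at 1405, 1577, 1567 and 1565 TPM in Smen and 36.7, 31.2, 52.3 and 43.4 in Ssil (-5.21, SE 0.17, limma adjusted p = 8.32e-14). It held 1 gene in each species, of 142 codons in Smen and up to 268 in the others.

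OG0000173 gave the largest rise from Shag to Ssil (7.96, SE 0.13, limma adjusted p = 2.65e-17) and was, of the families lower in both rapid ECAR species, the one whose smallest rapid against low difference was largest, 6.12. It was 0.189, 0.0646, 0.0785 and 0.159 TPM in Sdis, 0.185, 0.441, 0.195 and 0.784 in Shag, 84.1, 108, 94.2 and 96.7 in Smen and 356, 320, 372 and 331 in Ssil. The species with rapid ECAR overlapped each other and lay far below the others. It was tied to 2 genes in Smen and 1 in Ssil, and no gene could be tied in Sdis or Shag at so few reads. Its differences from the rapid ECAR species therefore depend on the pseudocount of 1 TPM.

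A family was taken as higher or lower in the rapid ECAR class when Sdis and Shag each differed in that direction, with a call, from both Smen and Ssil. This held for 18 families higher (8.61%, all orthogroups 5.65%) and 54 lower (25.8%, all 20.8%). Each of the 4 differences was at least 2-fold in 7 of the 18 (3.35% of the families, all orthogroups 1.51%) and in 17 of the 54 (8.13%, all 6.40%). The balance changed with the scaling, since the median rapid minus low difference of all orthogroups was -0.46 in TPM and 0.03 after median-ratio rescaling. The counts after rescaling were 31 higher (14.8%, all 13.1%) and 32 lower (15.3%, all 14.7%). Of the families called in TPM, 17 of 18 and 30 of 54 were called in the same direction after it, and 17 and 27 under quantile normalization as well. With the 4 species means as the samples, no family had an adjusted p under 0.05 in limma, and 27 of 209 (12.9%) had an unadjusted p under 0.05, beside 8.79% of all orthogroups.

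Among the families higher in the rapid ECAR class, OG0000010 had the widest gap by its smallest difference, with 48.5, 42.2, 42.7 and 41.2 TPM in Sdis, 56.4, 46.7, 28.9 and 53.1 in Shag, 4.52, 2.33, 2.94 and 4.05 in Smen and 1.88, 2.86, 2.06 and 2.37 in Ssil. The 2 classes did not overlap, and the 4 differences lay between 3.35 and 3.81 (SE 0.19, largest limma adjusted p = 1.38e-10). It held 4 genes in Sdis and 5 in Shag against 1 in Smen and 1 in Ssil. As TPM averages over copies, this difference is per length of gene. Without length it was -5.54 for Smen minus Sdis and -6.49 for Ssil minus Shag on the log2 scale. OG0000097, above, came second, with a smallest difference of 2.86.

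By the smallest of the 4 rapid against low differences, OG0000025 came after OG0000173 among the families lower in the rapid ECAR class. It was 0.543, 0.511, 0.676 and 0.443 TPM in Sdis, 4.33, 6.28, 1.33 and 4.42 in Shag, 61.4 ± 5.65 in Smen and 65.5 ± 4.10 in Ssil. The classes did not overlap, and Smen and Ssil did. The differences of Smen and Ssil from Shag were 3.73 and 3.82 (SE 0.24, largest limma adjusted p = 4.86e-10). No gene was tied in Sdis or Shag, and differences from their low values depend on the pseudocount of 1 TPM. Gene number did not follow the calls by class in a single direction. Of the 17 higher families tied in all species, 3 held more genes in the rapid ECAR species, 7 the same number and 7 fewer, and of the 48 lower families these numbers were 12, 15 and 21. Of the 131 tied families in neither class, they were 25, 57 and 49.

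Differences were also set beside gene number, in TPM and in counts without gene length. In each comparison, families with more genes in the first species had a positive median difference without gene length, from 0.27 (Smen minus Shag) to 1.41 (Ssil minus Sdis). Families with fewer genes in it had a negative median in 5 of 6 comparisons, from -0.48 to -0.16, and 0.39 between Shag and Sdis, where there were 7 such families. In TPM, families with more genes in the first species had a lower median than those with the same number in every comparison, for example 0.86 against 1.04 between Ssil and Sdis. Families with fewer genes in it did not all lie on the other side. Their median was also below that of the same number between Smen and Sdis (0.24 against 0.40), Ssil and Sdis (0.87 against 1.04) and Ssil and Smen (0.50 against 0.62). It was above in each comparison with Shag. The sign differed between TPM and counts without length in 47 of 302 (15.6%) differences with more genes in the first species, in 45 of 179 (25.1%) with fewer and in 43 of 695 (6.19%) with the same number. Summed length is part of TPM, so these values describe how the unit treats copies and were not tested.

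**Figure D5:**
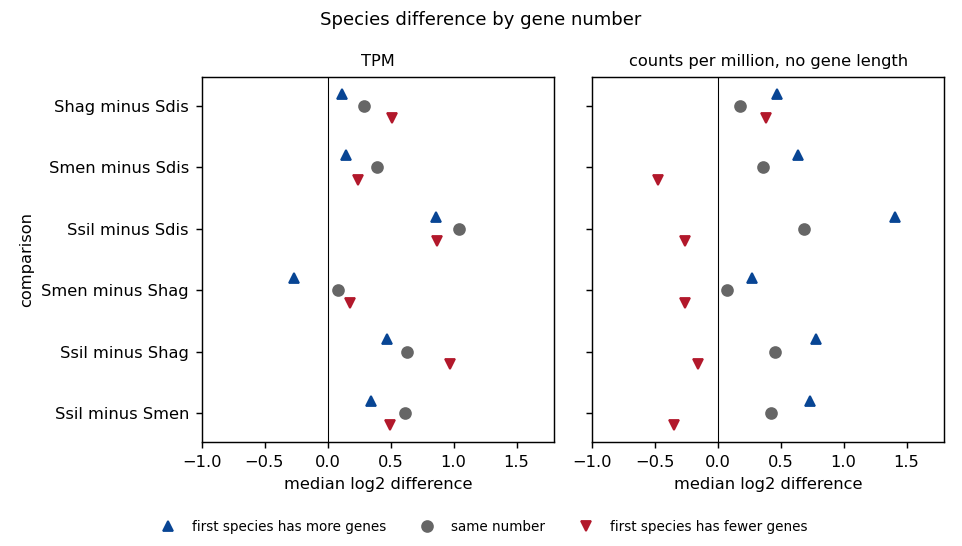
Median log2 difference between 2 species over the families with more (triangles up), the same (circles) or fewer (triangles down) genes in the first species, in TPM (left) and in library-scaled counts without gene length (right). Without gene length, triangles pointing up lie right of the circles in each comparison and reach 1.41 between Ssil and Sdis.

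The largest ratio of gene number between species, 5, was found in 5 of the 197 families tied in all species, which were OG0000010, OG0000057, OG0000110, OG0000122 and OG0000136. The last 3 were not named by rule. OG0000110 held 5 genes in Smen, OG0000122 in Ssil and OG0000136 in Shag. OG0000057 held 1 gene in Sdis, 5 in Shag, 1 in Smen and 2 in Ssil. Its TPM was 34.9, 28.8, 31.5 and 27.9 in Sdis, 13.7, 14.0, 11.4 and 14.3 in Shag, 84.6, 85.9, 108 and 93.0 in Smen and 40.4, 38.4, 34.0 and 35.4 in Ssil. All Shag libraries lay below all others, and their mean was 2.30-fold under Sdis (log2 difference -1.15, SE 0.11, limma adjusted p = 2.40e-07). Its summed coding length was 2125 codons in Shag and 402 in Sdis, and without length Shag was 1.09 above Sdis. The leading of the 5 Shag genes took 55.7% ± 5.59 of the counts.

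At the other end, OG0000027 and OG0000205 had the narrowest ranges among the families tested, 0.36 and 0.41. OG0000027 was 21.8 ± 1.04 TPM in Sdis, 22.3 ± 7.29 in Shag, 19.1 ± 1.18 in Smen and 24.9 ± 2.24 in Ssil, with 2 genes in each species but Smen, which held 3. Shag replicates ran from 13.9 to 30.6 and covered the libraries of the other species. The difference between Ssil and Smen was 0.36 (SE 0.17, limma adjusted p = 0.0562). It was -0.31 after median-ratio rescaling, where the range over the species was 0.84 and 33 families had a narrower one. OG0000205 was 14.0 ± 1.33, 14.7 ± 2.01, 13.7 ± 0.738 and 18.7 ± 1.23 TPM in the same order, with 1 gene in each species, and Ssil lay above the libraries of the other species. The difference between Ssil and Smen was 0.41 (SE 0.11, limma adjusted p = 0.00201), and -0.24 after rescaling, where the range was 0.61 and 15 families had a narrower one.

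Of the 212 families, 3 did not pass the filter on low values, and 15 were not tied to genes in at least 1 species. In these 15 families 19 species values were not tied, 17 of them with a mean under 5 TPM and a median over all 19 of 0.577 TPM. The highest was 391 TPM.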

How the data were processed

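RNA was sequenced from 4 replicate cultures of each of 4 species. The authors trimmed read pairs with Trimmomatic 0.30, checked them in FastQC, aligned them to each species' genome with HISAT2 2.1.0 and counted them per gene with HTSeq 2.0.3, per the methods and the submitters' processing notes. The expected counts deposited by the authors need not be whole, since pairs that fit several genes were shared in fractions, and they were rounded for edgeR and DESeq2. The deposited TPM is that of an orthogroup, for which the authors pooled member genes found by OrthoFinder and used edgeR. Lines that name no gene, 4.10% to 19.0% of the counts, were left out.

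Genes were tied to orthogroups where the summed counts followed the TPM over 4 libraries to a relative tolerance of 1.5e-09. The summed length had to come out as a whole number of bases, with at least 40 counts for 1 gene, 400 for 2 and 1000 for 3 or more. Either no other set of genes fitted, or all sets that did had the same gene number and summed length. In the latter case the gene number was kept, but not every gene was known. These rules tied 205, 209, 209 and 206 of the 212 families in Sdis, Shag, Smen and Ssil. Of the single genes tied, at least 99.6% had lengths of whole codons, so they are coding lengths, and no sequence or name was used. The method and the test were both tried on simulated data. The simulated orthogroups held fewer genes than OG0000000 does in Sdis and Shag, so the search that tied its genes there was not tried. The simulated spread was equal in all species, unlike the wider spread in Shag.

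Species were compared with limma 3.58.1 (R 4.3.3), on log2(TPM + 1), in a fit with an intensity trend and a mean per species over all 16 libraries. p-values were adjusted by the Benjamini-Hochberg method over 4232 orthogroups. The labels call the 4 samples biological replicates, and p-values measure the spread between them. The fit holds 1 variance per orthogroup over all species, so an SE does not follow the wider spread in Shag. edgeR 4.0.16 and DESeq2 1.42.0 were fitted to rounded counts of 4183 orthogroups with summed length as an offset. The families, lists and tests were chosen with earlier results of these data known.

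Families were named by rule: the 5 highest in mean TPM, the 2 most higher and 2 most lower in rapid ECAR species, the largest called difference in each direction of each comparison, the 2 widest and 2 narrowest ranges, the 3 with most genes, the 2 of lowest number among the 5 that tied for the largest ratio of gene number, and those at the limit. Alternatives were other pseudocounts, filters and scalings, no gene length, no trend, only the species compared, a 2-fold minimum, a replicate block, species means, each library left out, and a lower and a higher limit of the range.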

Additional observations from a re-analysis of the deposited data

Results flagged for a closer look

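Dixon's ratio, the gap of the highest or lowest sample to its neighbour divided by the range, was computed for the 4 replicates of each species in each named family, 88 groups in all, and exceeded its critical value in 2. Chance passes about 1 in 20 such groups. OG0000132 was 0.182 TPM in Sdis replicate 2, with 0.0594 to 0.0746 TPM in the others (ratio 0.876), all of them values from few reads. OG0000196 was 1405 TPM in Smen replicate 1, with 1565 to 1577 TPM in the others (ratio 0.933).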

How the results depend on the processing

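Over 35 counts and medians and all alternatives, 695 of 768 values stayed within the limits set, a fixed fold for counts and a replicate SD for medians. Of the values of named comparisons, 983 of 998 kept their direction and call. Many of these comparisons were chosen as the largest in these data, and leaving out a library of a species not compared cannot move a difference. The second tally is therefore no measure of robustness. With scalings that centre the typical orthogroup, families higher and lower in Shag than in Sdis were 55 and 90 (median-ratio), 63 and 85 (quantile), 54 higher in edgeR and 50 and 85 in DESeq2. Between Ssil and Sdis they were 82 and 95, 79 and 96, 78 higher in edgeR, and 75 and 90 in DESeq2. Between Ssil and Smen they were 81 and 98, 75 and 97, 77 and 90, and 77 and 91. By median ratio, 89 were lower in Ssil than in Shag (42.6%, all orthogroups 41.3%). Under these scalings 37.0% to 42.6% of the families' calls between Shag and Sdis were higher in Shag, beside 49.7% to 53.0% for all. Between Ssil and Sdis 45.1% to 47.0% were higher in Ssil, beside 50.1% to 51.7%. Between Ssil and Smen it was 43.6% to 46.1%, beside 50.2% to 51.2%. Families higher and lower in the rapid ECAR class were 31 and 32 (median-ratio: 14.8% and 15.3%, all orthogroups 13.1% and 14.7%). They were 34 and 28 by quantile (16.3% and 13.4%, all 13.5% and 15.1%). In edgeR they were 32 and 30 (16.3% and 15.3%, all 13.6% and 14.5%). In DESeq2 they were 32 and 31 (16.3% and 15.8%, all 13.9% and 14.8%). With species means as samples they were 0 and 0 in limma, with 27 at an unadjusted p under 0.05 (12.9%, all 8.79%). The cause was not tested.

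With a 2-fold minimum the calls were 54 (25.8%, all orthogroups 20.5%, 32 higher, 22 lower) between Shag and Sdis, 97 (46.4%, all 35.1%, 61 and 36) between Smen and Sdis, 137 (65.6%, all 62.0%, 37 lower) between Ssil and Sdis, 85 (40.7%, all 29.0%, 45 and 40) between Smen and Shag, 117 (56.0%, all 47.2%, 79 and 38) between Ssil and Shag and 117 (56.0%, all 50.9%, 77 higher) between Ssil and Smen, and 7 and 17 by class. The median TPM of families up to OG0000099 was 56.3, 64.1, 57.7 and 69.3 in Sdis, Shag, Smen and Ssil. Up to OG0000499, the wider limit, it was 36.1 in Sdis and 70.6 in Ssil, and 62.3 in Ssil over the tested families. The median absolute log2 difference between Smen and Sdis was 0.74 (median-ratio), 0.68 (quantile), 0.73 (up to OG0000099) and 0.77 (wider limit). Between Ssil and Sdis it was 0.98 and 1.04 under the first 2 of these, between Smen and Shag 0.64 up to OG0000099, between Ssil and Shag 0.94 by median ratio, and between Ssil and Smen 0.92, 0.93 and, without length, 0.99. Leaving out genes that share read pairs left 13, 22, 9 and 22 families with more than 1 gene in Sdis, Shag, Smen and Ssil, from 78, 111, 110 and 115 among those with every gene tied.

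OG0000027 reversed between Ssil and Smen at -0.31 (median-ratio), -0.56 (quantile), -0.45 (no length), -0.29 (edgeR) and -0.32 (DESeq2). OG0000205 reversed there at -0.24, -0.51, -0.23 (edgeR) and -0.26 (DESeq2). OG0000057 was 1.09 between Shag and Sdis without length.

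Leaving out each library in turn gave 145 to 171 calls between Shag and Sdis, beside 159 with all libraries (76.1%, all orthogroups 74.1%). By class it gave 16 to 19 families higher and 49 to 61 lower. The class shares were 7.66% to 9.09% higher (all orthogroups 5.25% to 6.26%) and 23.4% to 29.2% lower (all 18.6% to 24.2%). The median TPM in Ssil was 60.6 to 62.0. For the levels this alternative was chosen after seeing the data. The replicate numbers were not used to pair the samples. Of 24 correlations of same-numbered deviations, 8 were over 0.1 (range -0.33 to 0.38), and 4 of 16 libraries were closest to their own number. Such values cannot show whether same-numbered cultures were handled together. With a replicate block the calls were 156, 170, 193, 159, 180 and 180, beside 159, 172, 194, 161, 180 and 180 without it. Without the block, 74.1%, 77.6%, 89.8%, 69.6%, 83.1% and 84.1% of all orthogroups were called, in the same order. By class the calls with the block were 18 and 53 (8.61% and 25.4%, all orthogroups 5.62% and 20.4%).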
